A study of Mus musculus with 19 samples.

Results

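The 6 genes described here encode Wnt ligands of the cortical hem and pallium: Wnt8b, Wnt3a, Wnt2b, Wnt5a, Wnt7a and Wnt7b. They were chosen by name, and their rows were read from a table of 47643 gene symbols that holds 19 Wnt ligands in all. RNA was sequenced from cortex of E14.5 mouse embryos that were either GFAP::Cre; SmoM2 mutants, in which Cre driven by a GFAP promoter switches on SmoM2, an activated form of the Hedgehog transducer Smoothened, or wildtype. The 4 groups were mutant medial cortex (n = 4 libraries, numbered 1 to 4), control medial cortex (n = 5, numbered 2 to 6), mutant dorsal cortex (n = 4, numbered 1 to 4) and control dorsal cortex (n = 6, numbered 1 to 6). The sources used here do not say whether tissue was pooled or which cells recombined, and the extraction protocol speaks of lateral where the tissue label says dorsal. They do not say that each number is a separate embryo, so p-values measure the spread between these libraries.

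Wnt proteins are lipid-modified secreted signals that bind Frizzled receptors. In the canonical branch they act with LRP co-receptors to stabilise beta-catenin, and in other branches they act through receptors such as Ror2 and the planar polarity proteins. The cortical hem is a strip at the medial edge of the cortex, next to the choroid plexus, and it is known as a source of Wnt and Bmp signals that pattern the neighbouring hippocampal field. Wnt8b, Wnt3a, Wnt2b and Wnt5a are its classical ligands, while Wnt7a and Wnt7b are known from progenitors and neurons across the pallium and, in brain vessels, as signals for the blood-brain barrier.

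The values are transcript abundances in TPM, which are scaled for gene length, so ligands can be set beside each other within a library. The Hedgehog targets Gli1 and Ptch1 served to check the labels. Gli1 averaged 37.2 ± 9.94 TPM in mutant medial libraries and 0.398 ± 0.135 TPM in control medial libraries, and 35.0 ± 5.44 TPM in mutant dorsal libraries against 0.586 ± 0.268 TPM in control dorsal libraries (SD). The pallial transcription factor Emx1 was at 101.5 TPM or more in every library. Testing was limited to the 13520 genes that reached 1 TPM in 4 or more libraries, and 5 of the 6 ligands were among them. The exception was Wnt2b, which reached 1 TPM in 3 libraries. Fold changes are on the scale of log2(TPM + 1), which understates changes of low genes, and adjusted p-values are from limma with the Benjamini-Hochberg method over all tested genes. The median tested gene was itself lower in the mutants, by -0.10 in dorsal and -0.11 in medial cortex on the log2 scale. With median-ratio rescaling, the calls over all genes were 2079 higher and 1998 lower in dorsal cortex, against 1343 higher and 3727 lower as deposited. In medial cortex the same rescaling gave 2138 higher and 2341 lower, against 1276 and 4081. All 8 mutant libraries and control numbers 1, 5 and 6 were male by Xist and Ddx3y, while control numbers 2, 3 and 4 were female. A fit with sex as a term was therefore made for every ligand.

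The 6 ligands fell into an ordered set of levels that differed by region. The 19 Wnt ligands of the table summed to 115 ± 29.8 TPM in mutant medial libraries, 184 ± 15.5 TPM in control medial libraries, 195 ± 44.3 TPM in mutant dorsal libraries and 287 ± 27.9 TPM in control dorsal libraries (SD). Wnt7a and Wnt7b together made up 79.7% ± 14.2 of that sum in mutant medial, 76.4% ± 14.9 in control medial, 94.7% ± 2.19 in mutant dorsal and 96.2% ± 0.431 in control dorsal libraries. Wnt7b was the most abundant ligand of the 6 in all 19 libraries and Wnt7a was next in 19 of 19. Wnt5a came after them in most libraries, but mutant medial library 1 had more Wnt8b than Wnt5a. The order of Wnt8b, Wnt3a and Wnt2b in dorsal cortex could not be read, because all of their dorsal values were below 1 TPM.

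**Figure D1:**
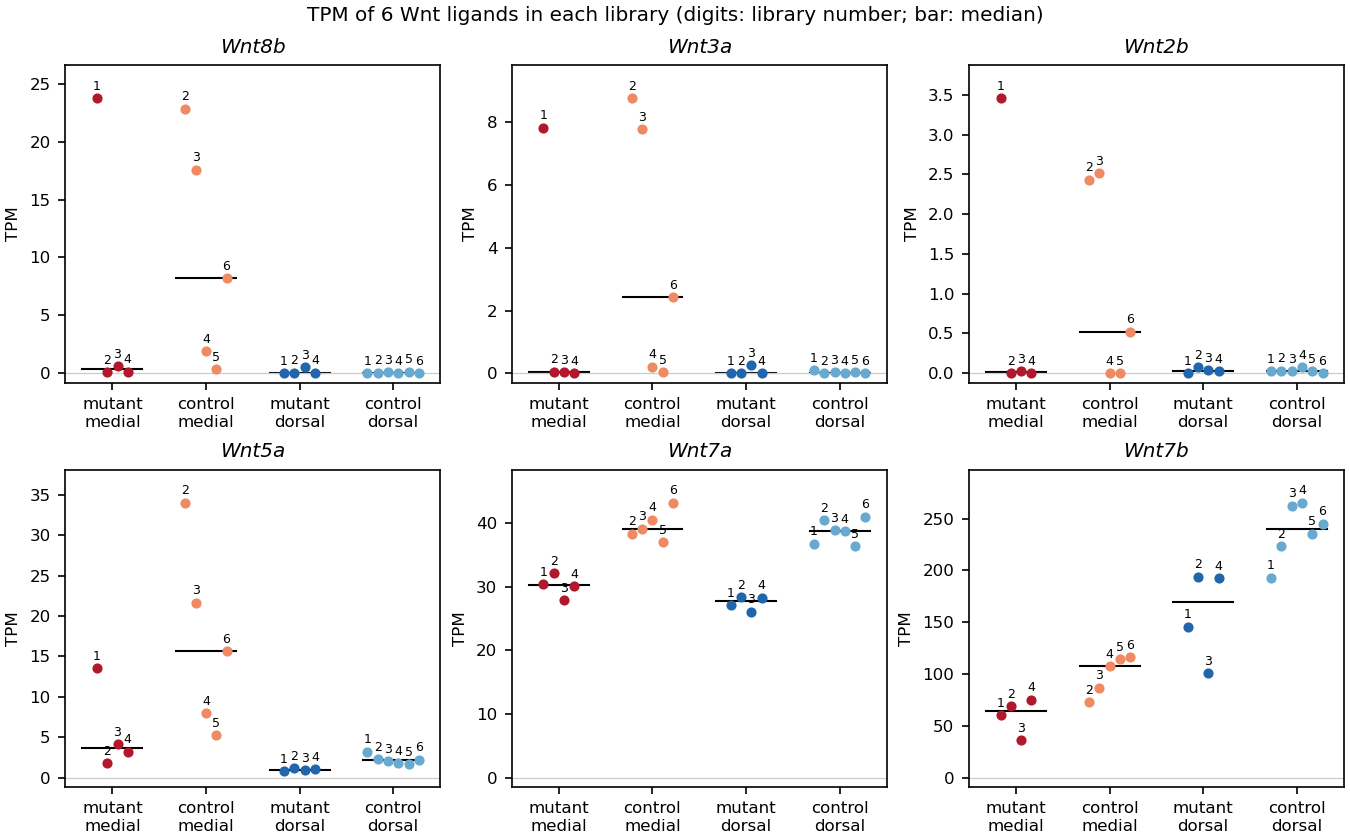
TPM of each ligand in each of the 19 libraries, 1 panel per ligand with its own axis from 0. Points are libraries with their numbers, and bars are group medians. Wnt8b, Wnt3a and Wnt2b were high in the same few medial libraries, while all 8 mutant libraries lay below all 11 control libraries for Wnt7a.

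Wnt8b, a canonical ligand used as a marker of the hem and the adjacent hippocampal field, lies on chr19:44493472-44514273 on the plus strand (GENCODE annotation of GRCm38). Its level was 23.7, 0.0765, 0.598 and 0.144 TPM in mutant medial libraries 1 to 4. In control medial libraries 2 to 6 it was 22.8, 17.6, 1.88, 0.352 and 8.21 TPM. In mutant dorsal libraries 1 to 4 it was 0.0250, 0.0524, 0.529 and 0.0580 TPM, and in control dorsal libraries it ran from 0 to 0.147 with a median of 0.0333 TPM. Mutant medial library 1 was as high as the highest controls while the other 3 mutant medial libraries were at or near the dorsal range, so the mutant and control medial groups overlapped. Mutant against control, the log2 change was -1.39 ± 0.84 in medial cortex (SE, adjusted p = 0.203) and 0.13 ± 0.81 in dorsal cortex (adjusted p = 0.92). Without mutant medial library 1, the medial change was -2.47 ± 0.65, with an adjusted p of 0.00689. In that fit Wnt8b met the filter only through 4 control medial libraries, so the change there is a description. All 5 control medial libraries exceeded all 6 control dorsal libraries, as for 11.1% of all tested genes. The medial against dorsal change in controls was 2.72 ± 0.76 (adjusted p = 0.0111). Wnt8b reached 1 TPM in 4 control medial libraries, in 1 mutant medial library and in no dorsal one, so it was tested only through the region where it was high, and this regional change is a description. The same contrast within mutants was 1.20 ± 0.89 (adjusted p = 0.378).

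Wnt3a, a canonical ligand of the hem that the hippocampus needs to form, lies on chr11:59248033-59290752 on the minus strand. It was at 7.83, 0.0468, 0.0318 and 0 TPM in mutant medial libraries 1 to 4, and at 8.76, 7.77, 0.206, 0.0430 and 2.43 TPM in control medial libraries 2 to 6. Mutant dorsal libraries 1, 2 and 4 were listed at 0 and library 3 at 0.259 TPM, and control dorsal libraries ran from 0 to 0.1001 with a median of 0.0171 TPM. The libraries with Wnt3a above 1 TPM, mutant medial 1 and control medial 2, 3 and 6, were also the 4 libraries with the most Wnt8b. Mutant against control, Wnt3a had a log2 change of -0.89 ± 0.65 in medial cortex (adjusted p = 0.297) and of 0.04 ± 0.63 in dorsal cortex (adjusted p = 0.965). Medial against dorsal, it was higher in controls by 1.67 ± 0.59 (adjusted p = 0.0384), although the groups overlapped. That call was lost without any 1 of the 6 control dorsal libraries (adjusted p between 0.0539 and 0.0631) and with no filter on low values (0.0598). Wnt3a met the filter in exactly 4 libraries, all of them medial, so its regional change too is a description, and without any of those 4 it was not tested at all. Within mutants the regional change was 0.73 ± 0.69 (adjusted p = 0.513).

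Wnt2b, a further hem ligand, lies on chr3:104945272-104961921 on the minus strand. It had 3.46, 0, 0.0265 and 0 TPM in mutant medial libraries 1 to 4, against 2.43, 2.52, 0, 0 and 0.524 TPM in control medial libraries 2 to 6. Dorsal values stayed at or below 0.0800 TPM in mutants and at or below 0.0803 TPM in controls. As with Wnt3a, mutant medial library 1 and control medial libraries 2 and 3 stood above all others, and control medial library 6 came next. By two-sided exact permutation tests over libraries, Wnt2b gave p = 0.762 for mutant against control in medial cortex and p = 0.771 in dorsal cortex. The smallest p these tests can give is 0.00794 in medial and 0.00476 in dorsal cortex. Medial against dorsal, exact sign-flip permutation over the numbered pairs gave p = 0.25 in controls and p = 1 in mutants, where 5 control pairs cannot go below 0.0625 and 4 mutant pairs cannot go below 0.125.

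The promoters of the hem ligands and of Wnt7a are shown because Wnt8b and Wnt3a varied together across libraries, and Wnt7a did not vary with them. Of the 6 ligands, 4 were in the RefSeq promoter table for GRCm38.p6, and Wnt5a and Wnt7b were not. Each window holds the 250 bases before the RefSeq start, written in the direction of transcription. The Wnt8b window is chr19:44493222-44493471 on the plus strand, that of Wnt3a is chr11:59290752-59291001 on the minus strand and that of Wnt7a is chr6:91411354-91411603 on the minus strand. Capitals mark the homeodomain core TAATTA, which reads the same on both strands, and the GC box GGGCGG or its reverse complement CCGCCC, with overlapping matches counted.
Wnt8b: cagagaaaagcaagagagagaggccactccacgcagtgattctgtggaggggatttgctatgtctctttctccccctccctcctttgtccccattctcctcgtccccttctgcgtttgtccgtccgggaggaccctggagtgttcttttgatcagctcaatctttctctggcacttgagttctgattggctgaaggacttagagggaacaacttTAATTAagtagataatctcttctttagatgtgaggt
Wnt3a: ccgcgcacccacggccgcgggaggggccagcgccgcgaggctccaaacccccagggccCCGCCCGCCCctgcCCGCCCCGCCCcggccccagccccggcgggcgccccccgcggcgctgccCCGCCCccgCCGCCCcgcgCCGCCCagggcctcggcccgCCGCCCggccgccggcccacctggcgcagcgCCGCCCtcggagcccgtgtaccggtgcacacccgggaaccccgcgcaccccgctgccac
Wnt7a: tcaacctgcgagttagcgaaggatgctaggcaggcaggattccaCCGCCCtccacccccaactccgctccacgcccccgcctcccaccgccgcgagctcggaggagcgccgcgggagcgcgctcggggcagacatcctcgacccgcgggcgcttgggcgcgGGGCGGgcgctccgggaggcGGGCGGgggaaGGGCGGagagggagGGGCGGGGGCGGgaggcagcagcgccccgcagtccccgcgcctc
The Wnt8b window had 48.4% G and C and 5 CpG dinucleotides, against a median of 52.4% and 6 over the 250-base windows of all 32851 promoters in the table. The Wnt3a window had 87.6% and 41 CpG, the Wnt7a window 77.6% and 34, and the Wnt2b window, not printed, 80.8% and 36. Wnt8b held 1 TAATTA, which starts 36 bases before the RefSeq start, a match found in 4.84% of all windows. Wnt3a held 9 GC boxes, Wnt7a 6, Wnt2b 3 and Wnt8b none, where 32.7% of all windows held at least 1. The TCF/LEF core CTTTGA or TCAAAG (13.8% of windows) and the GLI sequence GACCACCCA or TGGGTGGTC (0.225% of windows) were in none of the 4 windows. These matches describe the letters of the windows only.

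The libraries with high hem ligands also had high levels of other hem genes. Of 10 hem markers that include no Wnt gene, 6 to 8 were above 1 TPM in mutant medial library 1 and control medial libraries 2, 3, 4 and 6, against 2 or 3 in the other 4 medial libraries and 1 or 2 in the dorsal ones. Lmx1a, a transcription factor that defines the hem, was at 10.99, 0.342, 0.465 and 0.406 TPM in mutant medial libraries 1 to 4. In control medial libraries 2 to 6 it was at 8.24, 7.47, 1.87, 0.664 and 2.27 TPM. Rspo1, an R-spondin that enhances Wnt signalling, was at 12.7, 0.200, 0.272 and 0.335 TPM in the same mutant libraries, and at 19.7, 17.2, 1.86, 0.490 and 5.58 TPM in the control ones. Summed over the 10 markers, the hem list ran from 31.4 to 125 TPM in mutant medial, 51.5 to 142 TPM in control medial, 37.0 to 45.9 TPM in mutant dorsal and 66.3 to 76.2 TPM in control dorsal libraries, with Rspo3 making up most of the sum. With the mean hem marker level as a term in the fit, the medial change of Wnt8b was 0.10 and that of Wnt3a 0.25, neither past the test (adjusted p of 0.726 and 0.374). Under the same term, the medial against dorsal change in controls was 0.16 for Wnt8b (adjusted p = 0.635) and -0.30 for Wnt3a (adjusted p = 0.406). The term was added after the data were seen, and its markers were measured in the same libraries. How much hem each dissection held was not tested. In bulk tissue, fewer cells of a type and less RNA per cell cannot be told apart.

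Markers of the choroid plexus, which lies beside the hem, were highest in libraries other than those with the most Wnt8b. Ttr, the transthyretin gene and a defining choroid plexus marker, was at 0.925, 17.3, 161 and 1.60 TPM in mutant medial libraries 1 to 4, against 47.2, 6.08, 934, 0.584 and 1.84 TPM in control medial libraries 2 to 6. Its highest values stood in control medial library 4 and mutant medial library 3, which had little Wnt3a and no Wnt2b above 0.0265 TPM. The separation was not complete. Control medial library 4 had 1.88 TPM of Wnt8b, and control medial library 2, high in the hem ligands, came next in Ttr at 47.2 TPM. Summed over 9 choroid plexus markers, the range was 2.71 to 171 TPM in mutant medial, 2.31 to 998 TPM in control medial, 1.29 to 25.7 TPM in mutant dorsal and 1.38 to 17.9 TPM in control dorsal libraries.

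**Figure D2:**
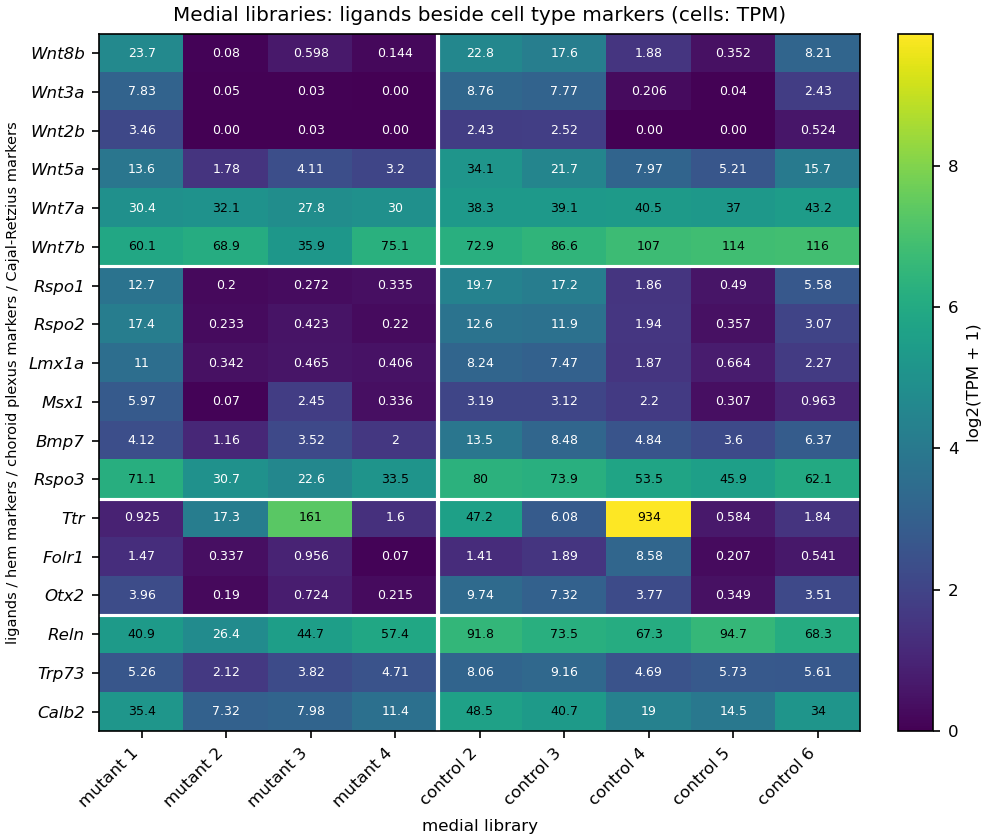
TPM of the 6 ligands, 6 of the 10 hem markers, 3 of the 9 choroid plexus markers and 3 of the 9 Cajal-Retzius markers in the 9 medial libraries. Cell text gives TPM and colour gives log2(TPM + 1). Mutant library 1 and control libraries 2 and 3 were high in the hem ligands and in Rspo1, Rspo2 and Lmx1a, while Ttr was highest in control library 4 at 934 TPM.

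The genes closest to the hem ligands across libraries included other hem genes. Over all 19 libraries, with the tissue composition of each library shared by every gene, Wnt8b had its highest Pearson r on the log2 scale with Rspo1 (0.988), Sp5 (0.986) and Lmx1a (0.982). Wnt3a was closest to Rspo1 (0.982), Wnt8b (0.981) and Rspo2 (0.979). Wnt2b was closest to Wnt3a (0.979), Rspo2 (0.973) and Lmx1a (0.959). Neither Rspo1, Rspo2, Lmx1a nor Sp5 passed the test for mutant against control in medial cortex, with log2 changes between -1.47 and -0.79 and adjusted p between 0.115 and 0.295.

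Wnt5a, a ligand best known for non-canonical signalling through Ror2, lies on chr14:28504750-28527448 on the plus strand. It was present in every library. Mutant medial libraries 1 to 4 had 13.6, 1.78, 4.11 and 3.20 TPM, and control medial libraries 2 to 6 had 34.1, 21.7, 7.97, 5.21 and 15.7 TPM. Mutant dorsal libraries 1 to 4 had 0.778, 1.19, 0.883 and 1.03 TPM, and control dorsal libraries ran from 1.67 to 3.20 with a median of 2.11 TPM. All dorsal mutants lay below all dorsal controls, as for 17.6% of all tested genes. In medial cortex only mutant library 1 lay within the control range. The medial groups overlapped, and their log2 change was -1.46 ± 0.44 (adjusted p = 0.0131), so Wnt5a fell in mutant medial cortex by the all-library fit. That call was lost with sex as a term (adjusted p = 0.0618), in a fit of the 2 medial groups alone (0.0934) and without mutant medial library 2 (0.0565). The exact permutation test, two-sided, gave p = 0.0714, where the smallest possible is 0.00794. In dorsal cortex the change was -0.68 ± 0.42 (adjusted p = 0.215), which did not pass. A fit of the dorsal groups alone, with a spread not shared with the more variable medial libraries, gave an adjusted p of 0.00261. The exact permutation p, not adjusted over genes, was 0.00476, the smallest possible. It rests on the same lack of overlap between the dorsal groups and adds nothing to it. With the hem marker level as a term, the change was -0.70 ± 0.17 in medial (adjusted p = 0.00305) and -0.54 ± 0.15 in dorsal cortex (adjusted p = 0.0075). That term was added after the data were seen and includes Rspo3, which itself fell in both regions of mutants. The values with the term are therefore a description. Markers of other medial cell types moved as well. Of 9 markers of Cajal-Retzius cells, early neurons of the marginal zone, 8 were tested, of which 6 fell in medial cortex of mutants. In dorsal cortex their log2 changes ran from -0.44 to 0.39 and none passed the limma test, although Reln, lower, and Nhlh2, higher, were the 2 under 0.05 before adjustment. Over all tested genes, 30.2% were lower in medial and 27.6% in dorsal cortex. The Cajal-Retzius sums ran from 66.6 to 123 TPM in mutant medial, 129.6 to 210.4 TPM in control medial, 56.4 to 97.2 TPM in mutant dorsal and 82.1 to 96.9 TPM in control dorsal libraries. All 8 tested markers were higher in medial than in dorsal cortex of controls, where 17.6% of all tested genes were higher. Of 10 medial pallium markers, 5 fell and 2 rose in medial and 4 fell and 2 rose in dorsal cortex. Over all tested genes, 9.44% were higher in medial and 9.93% in dorsal cortex of mutants. The medial pallium markers summed to 394 to 582 TPM in mutant medial, 488 to 629 TPM in control medial, 304 to 383 TPM in mutant dorsal and 289 to 362 TPM in control dorsal libraries. The part of either list in the Wnt5a change was not tested.

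Medial cortex held more Wnt5a than dorsal cortex in both genotypes. The medial against dorsal change was 1.47 ± 0.46 in mutants (adjusted p = 0.0332) and 2.24 ± 0.39 in controls (adjusted p = 0.000463), with no overlap of regions in either. With the hem term these changes were 0.78 ± 0.17 and 0.94 ± 0.18 (adjusted p of 0.0121 and 0.00478). Over all tested genes, 7.11% were wholly higher in medial than in dorsal cortex of mutants and 11.1% in controls. Within numbered pairs, medial exceeded dorsal by 0.35 to 3.04 in 4 of 4 mutants and by 1.22 to 3.41 in 5 of 5 controls on the log2 scale. The mutant call rested on few libraries: it was lost without mutant dorsal library 1, 2 or 4 (adjusted p of 0.0652, 0.0750 and 0.0739), without mutant medial library 1 or 3 (0.108 and 0.0732), with no filter (0.0570) and in the 2 mutant groups alone (0.0789). The genes with patterns most like Wnt5a were Stat3 (r = 0.977 over 19 libraries), a cytokine-responsive transcription factor, Nrp2 (r = 0.975), a semaphorin receptor, and Axin2 (r = 0.973), a feedback inhibitor induced by canonical Wnt signalling. These 3 also fell in mutant medial cortex, with log2 changes of -0.79 for Stat3, -1.01 for Nrp2 and -0.78 for Axin2 (adjusted p of 0.00323, 0.0018 and 0.00596), but the likeness and these changes use the same libraries.

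Wnt7a, a ligand of ventricular zone progenitors, lies on chr6:91363981-91411363 on the minus strand. It varied little within groups and fell in both regions of the mutant. Mutant medial libraries 1 to 4 had 30.4, 32.1, 27.8 and 30.0 TPM, against 38.3, 39.1, 40.5, 37.0 and 43.2 TPM in control medial libraries 2 to 6. Mutant dorsal libraries 1 to 4 had 27.1, 28.4, 26.1 and 28.3 TPM, and control dorsal libraries ran from 36.4 to 41.0 with a median of 38.8 TPM. The groups did not overlap in either region. The log2 change was -0.39 ± 0.05 in medial cortex (adjusted p = 2.45e-05) and -0.48 ± 0.05 in dorsal cortex (adjusted p = 1.09e-06), which is 0.765 and 0.717 of control TPM + 1. Across all genes tested, 22.7% had mutant medial values wholly below control medial values, and 17.6% did so in dorsal cortex. The call held in every alternative in both regions. Medial against dorsal, Wnt7a changed by 0.13 ± 0.06 in mutants (adjusted p = 0.114) and by 0.03 ± 0.05 in controls (adjusted p = 0.637). With the library number within a genotype as a random replicate block, the mutant regional difference was past the test (adjusted p = 0.0104).

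Wnt7b, a canonical ligand of cortical neurons, lies on chr15:85535437-85582473 on the minus strand. Mutant medial libraries 1 to 4 had 60.1, 68.9, 35.9 and 75.1 TPM, against 72.9, 86.6, 107, 114 and 116 TPM in control medial libraries 2 to 6. Mutant dorsal libraries 1 to 4 had 146, 194, 101 and 193 TPM, and control dorsal libraries ran from 193 to 266 with a median of 240 TPM. The groups overlapped at their edges in both regions, and library 3 was the lowest mutant in each. Wnt7b fell in both regions, with a log2 change of -0.75 ± 0.21 in medial cortex (adjusted p = 0.00915) and -0.62 ± 0.20 in dorsal cortex (adjusted p = 0.0225). The dorsal call was lost without mutant dorsal library 3 (-0.42, adjusted p = 0.116) or 1 (-0.60, 0.0560), and with median-ratio rescaling (-0.53, 0.0569). Dorsal cortex had more Wnt7b than medial cortex: the medial against dorsal change was -1.39 ± 0.22 in mutants (adjusted p = 0.00217) and -1.26 ± 0.19 in controls (adjusted p = 0.000156), without overlap. Over all tested genes, 8.05% were wholly lower in medial than in dorsal cortex of mutants and 9.39% in controls. The mutant regional call was lost when the 2 mutant groups were fitted alone (adjusted p = 0.0569). The ratio of Wnt7b to Wnt7a was 1.98 ± 0.508 in mutant medial, 2.51 ± 0.457 in control medial, 5.73 ± 1.41 in mutant dorsal and 6.15 ± 0.663 in control dorsal libraries (SD).

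Neuron and radial glia markers moved with genotype too. Of 10 neuron markers, 7 fell in mutant medial cortex and 6 in mutant dorsal cortex, and none rose, where 30.2% and 27.6% of all tested genes were lower. With median-ratio rescaling, 7 fell and 1 rose in medial cortex and 2 fell and 1 rose in dorsal cortex, and with sex as a term 4 fell in dorsal cortex. Over all 13520 tested genes, the rescaling gave 2341 lower and 2138 higher in medial, and 1998 lower and 2079 higher in dorsal cortex. Tubb3, a neuronal tubulin that makes up most of the list's TPM, had log2 changes of -0.52 in medial and -0.39 in dorsal cortex (adjusted p of 0.0015 and 0.009). The 10 neuron markers summed to 1737 to 2320 TPM in mutant medial, 2711 to 3362 TPM in control medial, 2283 to 3456 TPM in mutant dorsal and 3554 to 4248 TPM in control dorsal libraries. The lowest sums in each region were those of mutant library 3, which also had the least Wnt7b. Per 1000 TPM of neuron markers, Wnt7b was 28.6 ± 6.56 in mutant medial and 33.3 ± 6.07 in control medial libraries (SD, exact permutation p = 0.31). The same quantity was 52.5 ± 7.29 in mutant dorsal and 61.2 ± 5.74 in control dorsal libraries (exact permutation p = 0.0714). Neither difference passed, and the part that neuron content has in the Wnt7b change was not tested.

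Radial glia, the neural stem cells that line the ventricle, had a mixed marker response. Of 12 markers, 4 rose and 1 fell in mutant medial cortex, and 7 rose and 2 fell in mutant dorsal cortex. Over all tested genes, 9.44% were higher and 30.2% lower in medial cortex, and 9.93% higher and 27.6% lower in dorsal cortex. The medial count of rises was 2 with sex as a term and without control medial library 4 or mutant medial library 3, and the dorsal one was 4 without mutant dorsal library 3. The falls numbered 1 to 3 in these and the other fits that left out a library. Slc1a3, a glutamate transporter, rose by 0.73 and 0.81 in medial and dorsal cortex on the log2 scale, while Fabp7, a fatty acid binding protein, fell, with changes of -0.86 and -0.44. The 12 markers summed to 3256 to 3661 TPM in mutant medial, 3372 to 4106 TPM in control medial, 2746 to 3031 TPM in mutant dorsal and 2642 to 2988 TPM in control dorsal libraries. Per 1000 TPM of radial glia markers, Wnt7a was 8.67 ± 0.934 in mutant medial against 10.6 ± 1.07 in control medial libraries (SD, exact permutation p = 0.0476). It was 9.45 ± 0.756 in mutant dorsal against 13.7 ± 0.670 in control dorsal libraries (exact permutation p = 0.00476, the smallest possible). The medial ratios overlapped, at 7.60 to 9.87 in mutant and 9.33 to 11.7 in control libraries. The part that radial glia content has in the Wnt7a change was not tested.

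**Figure D3:**
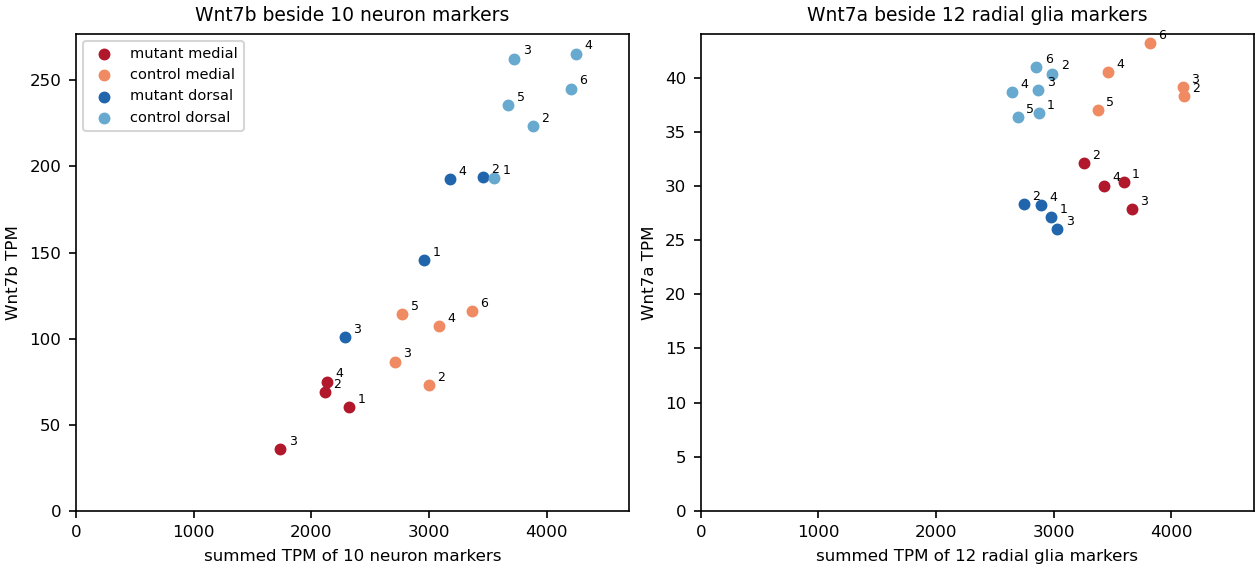
TPM of Wnt7b against the summed TPM of 10 neuron markers (left) and of Wnt7a against that of 12 radial glia markers (right) in all 19 libraries, numbered within their groups. The lowest Wnt7b in each region was in mutant library 3, which also had the lowest neuron marker sum there. Mutant Wnt7a lay below control Wnt7a in both regions.

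The closest patterns to Wnt7a over the 19 libraries were those of Bckdha (r = 0.960), an enzyme subunit of branched-chain amino acid breakdown, Arhgef10l (r = 0.949), a guanine nucleotide exchange factor, and Npc2 (r = 0.944), a lysosomal cholesterol carrier. Those closest to Wnt7b were Gas7 (r = 0.991), Prex1 (r = 0.987), a Rac exchange factor, and Ttll7 (r = 0.986), a tubulin polyglutamylase. Gas7 changed by -0.73 ± 0.22 in medial and -0.64 ± 0.21 in dorsal cortex of mutants, beside -0.75 and -0.62 for Wnt7b. Gas7 was picked by its likeness in these same libraries, so the like changes are no separate result. With group means taken out, r with Wnt7a was 0.693 for Bckdha, 0.609 for Arhgef10l and 0.623 for Npc2. That with Wnt7b was 0.940 for Gas7, 0.928 for Prex1 and 0.907 for Ttll7.

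Counting ligands, 3 of the 5 tested fell in mutant medial cortex (Wnt5a, Wnt7a and Wnt7b) and 2 fell in mutant dorsal cortex (Wnt7a and Wnt7b), and none rose. Over all tested genes, 30.2% were lower and 9.44% higher in medial cortex, 39.6% in all, and 27.6% were lower and 9.93% higher in dorsal cortex, 37.5% in all. Medial against dorsal, 1 ligand was higher and 1 lower in mutants, where 8.03% and 10.8% of all genes were called (18.8% in all). In controls 3 were higher and 1 lower, where 17.6% and 14.9% were called (32.4% in all), but 2 of those 3, Wnt8b and Wnt3a, had entered the test only through medial libraries. With the library number as a random replicate block, 2490 genes were higher and 2793 lower in mutants, and 3588 and 3026 in controls. With so few members, these counts describe the ligands and do not set them apart from other genes.

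The mutant effect was then compared between regions. The difference, medial effect minus dorsal effect, was -1.52 ± 1.17 for Wnt8b, -0.94 ± 0.91 for Wnt3a, -0.77 ± 0.61 for Wnt5a, 0.09 ± 0.07 for Wnt7a and -0.13 ± 0.29 for Wnt7b, each with an adjusted p of 1 by limma and unadjusted p between 0.211 and 0.672. Of all genes tested, 0.0074% passed this test, which does not use the pairing of libraries by number. With the library number as a random replicate block, 24 genes were higher and 25 lower. None of the ligands passed at an unadjusted exact permutation p under 0.05 except Wnt7a (p = 0.0159, two-sided, over 126 arrangements), whose fall was smaller in medial than in dorsal cortex. For Wnt5a the 95% interval of the difference ran from -2.05 to 0.50.

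**Figure D4:**
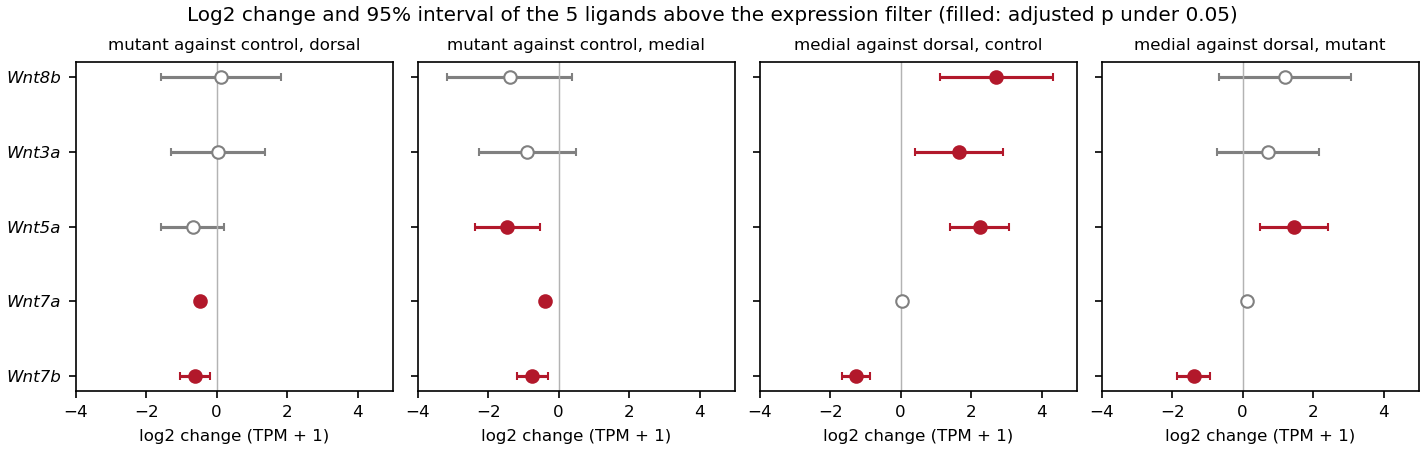
Log2 changes of the 5 tested ligands in the comparisons, with 95% intervals from limma and filled symbols for adjusted p under 0.05. Wnt7a had the narrowest intervals, and those of Wnt8b and Wnt3a for mutant against control crossed 0 in both regions.

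The other Wnt pathway genes were then examined by role. Of 13 other Wnt ligands only Wnt5b, a relative of Wnt5a, was above the filter. It averaged 8.61 ± 0.677 TPM in mutant medial against 9.14 ± 1.29 TPM in control medial, and 7.22 ± 1.14 TPM in mutant dorsal against 7.63 ± 0.977 TPM in control dorsal libraries. Its log2 change was -0.07 in each region (adjusted p of 0.638 and 0.635). Wnt9a, below the filter, reached 3.53 TPM in mutant medial library 1 and 4.03 and 3.38 TPM in control medial libraries 2 and 3, the libraries with the most Wnt8b.

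For the secretion machinery, 2 of 4 genes were tested. Porcn, the acyltransferase that attaches the lipid to Wnt proteins, averaged 13.8 ± 1.16 TPM in mutant medial against 23.2 ± 1.74 TPM in control medial, and 18.2 ± 2.49 TPM in mutant dorsal against 28.1 ± 6.85 TPM in control dorsal libraries. Porcn fell in both regions, with log2 changes of -0.71 ± 0.14 in medial (adjusted p = 0.00085) and -0.58 ± 0.14 in dorsal cortex (adjusted p = 0.00341). Wls, the carrier that takes Wnt proteins to the cell surface, averaged 9.43 ± 4.55 TPM in mutant medial against 19.7 ± 7.12 TPM in control medial libraries and fell by 1.001 ± 0.25 (adjusted p = 0.00362). In dorsal cortex Wls had 6.65 ± 0.886 TPM in mutants against 10.2 ± 1.12 TPM in controls, with a change of -0.56 ± 0.24 that did not pass (adjusted p = 0.0715).

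Of 21 receptors and co-receptors, 17 were tested, of which 6 fell in medial and 5 in dorsal cortex, and none rose. Those shares lie near the 30.2% and 27.6% of all genes that were lower. With median-ratio rescaling, 4 fell and 1 rose in medial and 3 fell and 1 rose in dorsal cortex. Over all 13520 tested genes, that rescaling gave 2341 lower and 2138 higher in medial, and 1998 lower and 2079 higher in dorsal cortex. Fzd3, a Frizzled of the planar polarity branch that guides axons, had 116 ± 3.67 TPM in mutant medial against 150 ± 11.1 TPM in control medial libraries. It fell by 0.37 in both regions (adjusted p of 0.0012 in medial and 0.000882 in dorsal cortex). Fzd9, a Frizzled of hippocampal progenitors, had 35.8 ± 14.03 TPM in mutant medial against 69.0 ± 20.7 TPM in control medial libraries (-0.96, adjusted p = 0.00808). In dorsal cortex Fzd9 fell by 0.87 (adjusted p = 0.0124), a call lost without mutant dorsal library 2 (0.0548). Ror2, the Wnt5a receptor, fell by 0.69 ± 0.17 in medial cortex (adjusted p = 0.00397) and changed by -0.24 in dorsal cortex (adjusted p = 0.265). Fzd2 had log2 changes of -0.25 and -0.27, and Ptk7, a polarity co-receptor, of -0.22 and -0.20 in medial and dorsal cortex. All 4 passed, but median-ratio rescaling ended the Ptk7 calls in both regions (adjusted p of 0.0871 and 0.107) and the medial Fzd2 call (0.0899).

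Among secreted antagonists, 9 of 15 were tested, of which 4 fell in medial and 3 in dorsal cortex, beside 30.2% and 27.6% of all genes, and 1 rose in medial cortex without mutant medial library 1. Sfrp1, which binds Wnt proteins outside the cell, had 159 ± 25.2 TPM in mutant medial against 232 ± 16.9 TPM in control medial, and 152 ± 18.0 TPM in mutant dorsal against 226 ± 18.7 TPM in control dorsal libraries. Its log2 change was -0.55 in medial and -0.57 in dorsal cortex (adjusted p of 0.00025 and 0.000136). Draxin, a guidance cue and Wnt antagonist, fell in both regions (-0.39 in medial and -0.67 in dorsal cortex), as did Sfrp2 (-0.41 and -0.37), with adjusted p of 0.00703 or less. Frzb, a further secreted Frizzled-related protein, fell by 1.14 ± 0.25 in medial cortex (adjusted p = 0.00179). Of 4 R-spondins, 3 were tested and Rspo3 fell in both regions. All 3 fell in medial cortex without mutant medial library 1. In that fit Rspo1 and Rspo2 met the filter only through control medial libraries, so their falls are a description. Rspo3 had 39.5 ± 21.6 TPM in mutant medial against 63.1 ± 14.1 TPM in control medial, and 38.3 ± 3.94 TPM in mutant dorsal against 66.7 ± 3.35 TPM in control dorsal libraries. The change was -0.77 in medial (adjusted p = 0.0107, or 0.053 with sex as a term) and -0.79 in dorsal cortex (0.00767).

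Inside the cell, 16 of 17 beta-catenin transducers were tested, and in each region 1 rose and 4 fell, shares no higher than those over all genes (9.44% higher and 30.2% lower in medial, 9.93% and 27.6% in dorsal cortex). With median-ratio rescaling 2 rose and 3 fell in each. Over all 13520 tested genes, that rescaling gave 2138 higher and 2341 lower in medial, and 2079 higher and 1998 lower in dorsal cortex. The dorsal transducer count was 2 without control dorsal library 1 or mutant dorsal library 1 or 4. The gene that rose as deposited was Ctnnb1, which encodes beta-catenin, at 1593 ± 150 TPM in mutant medial against 1276 ± 39.3 TPM in control medial, and 1746 ± 19.2 TPM in mutant dorsal against 1350 ± 48.6 TPM in control dorsal libraries. Its log2 change was 0.32 in medial and 0.37 in dorsal cortex (adjusted p of 9.27e-05 and 1.06e-05). Mutant values lay wholly above control values in both regions, as for 7.63% of all tested genes in medial and 7.25% in dorsal cortex. Pygo1, a co-activator of beta-catenin, had log2 changes of -0.80 in medial and -0.74 in dorsal cortex (adjusted p of 3.95e-07 and 3.33e-07). Apc, a scaffold of the destruction complex, had changes of -0.45 and -0.44, and Lef1, a DNA-binding partner of beta-catenin, of -0.83 and -0.62. The dorsal Lef1 call was lost with sex as a term (adjusted p = 0.053) and in 4 fits that left out 1 library (up to 0.0667, without mutant dorsal library 2). All 11 planar polarity genes were tested, of which 6 fell in medial and 5 in dorsal cortex, beside 30.2% and 27.6% of all genes. The count was 4 in each region, with 1 that rose, under median-ratio rescaling, for which the counts over all genes are given above. Dact1, a Dishevelled-binding protein, had log2 changes of -0.83 in medial and -0.76 in dorsal cortex (adjusted p of 1.02e-07 and 1.03e-07). Vangl2, a core polarity protein, fell by 0.31 in each region. Celsr3, a polarity cadherin, had a change of -0.46 in dorsal cortex (adjusted p = 0.00345) and of -0.37 in medial cortex (0.0153, or 0.0529 with median-ratio rescaling). Prickle2 fell by 0.55 in medial cortex (adjusted p = 0.00679) and changed by -0.34 in dorsal cortex (adjusted p = 0.0713).

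Of 12 feedback and target genes of canonical signalling, 9 were tested, of which 5 fell in medial and 2 in dorsal cortex, beside 30.2% and 27.6% of all genes. The dorsal count was 1 with sex as a term and without control dorsal library 1 or mutant dorsal library 1, 2 or 4. Axin2 had 16.4 ± 5.99 TPM in mutant medial against 28.9 ± 9.73 TPM in control medial, and 9.35 ± 0.741 TPM in mutant dorsal against 12.4 ± 0.795 TPM in control dorsal libraries. Its mutant dorsal values lay wholly below control dorsal values, as for 17.6% of all tested genes. The dorsal change of -0.37 was not past the test (adjusted p = 0.151). Tnfrsf19, a receptor gene and canonical Wnt target, had 69.6 ± 32.1 TPM in mutant medial against 157 ± 37.9 TPM in control medial libraries. Its log2 change was -1.27 in medial and -0.90 in dorsal cortex (adjusted p of 0.000836 and 0.00823). Nkd1, a feedback inhibitor, fell by 0.60 in medial cortex (adjusted p = 0.00519) and changed by -0.09 in dorsal cortex (adjusted p = 0.675).

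Brain endothelium is a known target of Wnt7a and Wnt7b, and 12 genes of its barrier response were tested, of which 3 fell in medial and 4 in dorsal cortex, near the 30.2% and 27.6% of all genes that were lower. Neither count was stable: with median-ratio rescaling 1 fell and 2 rose in medial and 2 fell in dorsal cortex, and with sex as a term 1 fell in medial and 2 in dorsal cortex. Over all 13520 tested genes, rescaling gave 2341 lower and 2138 higher in medial, and 1998 lower and 2079 higher in dorsal cortex. The sex term gave 3700 lower in medial and 3433 in dorsal cortex. Of the 12 genes, the medial count was 1 without control medial library 2, 3 or 6 or mutant medial library 2, and the dorsal count was 1 without mutant dorsal library 3 and 2 without control dorsal library 4. Foxf2, a transcription factor of brain vessels, had 3.62 ± 0.409 TPM in mutant dorsal against 4.95 ± 0.456 TPM in control dorsal libraries (-0.37, adjusted p = 0.00264). Spock2, a matrix proteoglycan, had log2 changes of -0.46 in medial and -0.42 in dorsal cortex, both past the test, with the dorsal call lost without mutant dorsal library 3 (adjusted p = 0.0553). Cldn5, a tight junction protein, fell by 0.37 in dorsal cortex (adjusted p = 0.0292), but not without mutant dorsal library 3 (0.114), with sex as a term (0.0871) or with median-ratio rescaling (0.109). The calls of Abcb1a, a drug efflux transporter, were likewise lost in both regions with sex as a term (adjusted p of 0.204 in medial and 0.182 in dorsal cortex). The 9 general endothelial markers had log2 changes of -0.07 to 0.23 in medial and -0.28 to 0.01 in dorsal cortex, with no adjusted p under the threshold, and their sums ran from 50.1 to 65.1 TPM in mutant medial, 50.4 to 61.7 TPM in control medial, 50.1 to 61.5 TPM in mutant dorsal and 59.0 to 67.8 TPM in control dorsal libraries.

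**Figure D5:**
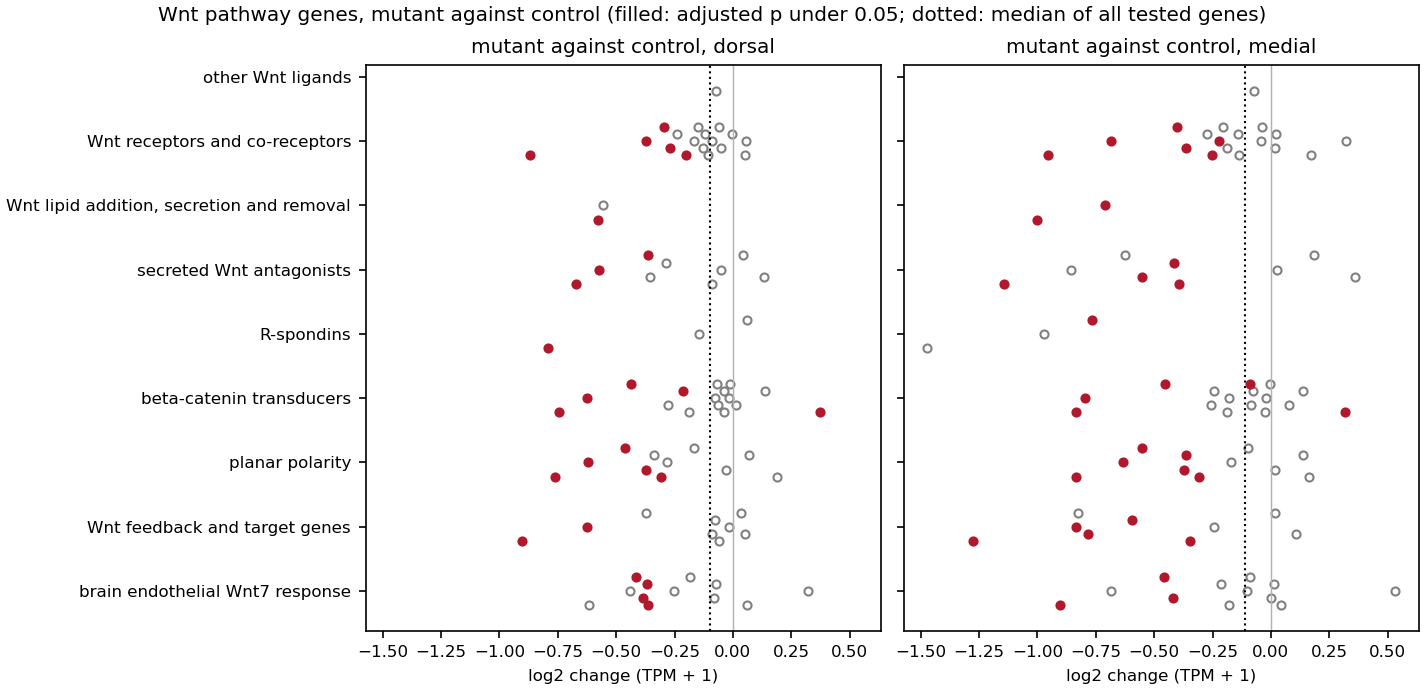
Log2 change of each tested Wnt pathway gene, mutant against control, in dorsal (left) and medial cortex (right), grouped by role. Filled points have a limma adjusted p under 0.05 and the dotted line is the median of all tested genes, -0.10 in dorsal and -0.11 in medial cortex. Most called genes lie left of that line, and Ctnnb1 was the called gene highest on the axis, at 0.37 and 0.32.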

How the data were processed

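Stranded total RNA libraries were made from E14.5 cortex, per the labels' protocols. The authors deposited 1 table of TPM values per gene symbol and library, mapped to mm10 per the submitters' processing notes; aligner, quantifier and annotation: not given in the sources used here. TPM keeps no read depth, so the depth of each library is unknown and counting intervals were not computed; columns summed to 1000000, and 17357 to 18670 symbols were above 0.

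Values were transformed to log2(TPM + 1), filtered (1 TPM in 4 libraries) and fitted with limma 3.58.1 in R 4.3.3 over all 19 libraries as 4 groups (trend, robust). A Wnt ligand below the filter got an exact permutation test. In a test with known changes in 200 of 13520 genes for mutant against control in dorsal cortex, the fit recovered 77% at a log2 change of 0.5 and 95% at 1. Libraries of the same genotype and title number deviated together between regions (r 0.549 to 0.795 in 9 pairs). These numbers were therefore taken to pair medial with dorsal libraries within a genotype, and the random replicate block joins such pairs. Libraries of the same number across genotypes did not deviate together (-0.436 to 0.138 in 7 pairs). Different numbers within a genotype were not compared. Numbers follow the titles; the descriptions of the control medial libraries run from 1 to 5 where the titles run from 2 to 6, and all control pairs and blocks rest on the titles.

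Promoter sequences came from RefSeq (GRCm38.p6). The ligands, gene lists and alternatives were chosen with earlier results of these data known. Genes named are the 6 ligands, up to 4 genes with the smallest adjusted p per pathway list and region, the 3 genes most correlated with each ligand, and abundant markers of each list, except 1 gene that is not reported here; Emx1, Gli1, Ptch1, Lmx1a, Slc1a3 and Wnt9a were named after their values were seen. Predicted and clone-named genes were left out of the correlated genes. Alternatives were no filter, other scalings, blocks, a sex term, fits of 2 groups and leaving out each library; a fit with hem marker level as a term was added after seeing the data.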

Additional observations from a re-analysis of the deposited data

Results flagged for a closer look

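In 24 tests of the 6 ligands over 4 groups, 6 values stood apart from their group by more than Dixon's 95% limit. Chance passes that limit in about 1 of 20 groups only for independent, normally distributed values. Here many values were at or near 0 TPM, and Wnt8b, Wnt3a and Wnt2b varied together. The number of flags is therefore a description and cannot be set against that rate. Mutant medial library 1 stood above the other 3 mutant medial libraries for Wnt8b at 23.7 TPM, for Wnt3a at 7.83 TPM and for Wnt2b at 3.46 TPM. Its hem markers were high as well (Lmx1a 10.99 TPM), and its Wnt7a, at 30.4 TPM, was within the range of the other mutants. Mutant dorsal library 3 stood above the other mutant dorsal libraries for Wnt8b at 0.529 TPM and for Wnt3a at 0.259 TPM, both under 1 TPM. Control dorsal library 1 had 0.1001 TPM of Wnt3a, above the other 5 control dorsal libraries.

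The mutant effect on Wnt7a differed between regions by 0.0938 on the log2 scale, with a smaller fall in medial cortex. An exact permutation test of the differences within numbered pairs gave p = 0.0159, two-sided, where limma over all genes gave an adjusted p of 1.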

How the results depend on the processing

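Each ligand was refitted under up to 32 alternatives. The Wnt7a falls in both regions and the medial Wnt7b fall kept direction and call in all of theirs. The number of ligands past the test was 1 with no filter and 0 with the 2 mutant groups alone for medial against dorsal in mutants (main value 2), 1 with median-ratio rescaling for mutant against control in dorsal cortex (main value 2), and 2 with the hem term for medial against dorsal in controls (main value 4). The dorsal count was 3 with the 2 dorsal groups alone and with the hem term, that for medial cortex was 2 with the 2 medial groups alone and with sex as a term, and that for medial against dorsal in mutants was 3 with the random replicate block. Leaving out 1 library at a time gave 1 to 2 ligands in dorsal cortex, 2 to 4 in medial cortex, 3 to 4 for medial against dorsal in controls, 1 to 2 in mutants and 0 for the difference between regions. The 4 in medial cortex include Wnt8b without mutant medial library 1, when only control medial libraries took it past the filter. In these fits the spread was again 1 estimate shared by all 4 groups, the reduced one included.

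Directions turned only for changes near 0 or under the hem term. A fixed replicate block by title number also joins mutant with control libraries, which did not deviate together. With it, the dorsal change was -0.17 for Wnt8b and -0.20 for Wnt3a. Leaving out 1 library at a time, these ran from -0.0103 to 0.182 and from -0.0395 to 0.0712, with both lowest values without mutant dorsal library 3. With the hem term, the medial mutant change was 0.10 for Wnt8b and 0.25 for Wnt3a, and medial against dorsal was -0.30 for Wnt3a in controls and -0.15 for Wnt8b and -0.31 for Wnt3a in mutants. The Wnt7b difference between regions ran from -0.33 (without mutant dorsal library 3) to 0.10 (without mutant medial library 3). The cause of these turns was not tested.

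With the library number as a random replicate block, Wnt7a in medial against dorsal mutants passed (0.13, adjusted p = 0.0104), and no other ligand's call changed. Exact permutation tests between regions cannot go below 0.0625 in controls or 0.125 in mutants, so they could not pass. The number of libraries and the unknown depth limit what can be said of Wnt2b and of dorsal Wnt8b and Wnt3a.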
